A study of Mesocricetus auratus with 64 samples.

Results

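The small RNAs of 21 to 22 nt, the size of microRNAs and endogenous small interfering RNAs, were taken from the 2 small RNA tables of wild-type golden hamsters by length alone. They made up 26073 of the 144595 distinct sequences of both tables, with 15609 of 105302 in the oocyte library and 19918 of 91227 in the embryo library. The study profiled small and long RNA of hamster testis, oocytes and early embryos, wild type or deficient in Pld6, a mitochondrial enzyme needed to make piRNAs, in 64 samples, of which 32 were small RNA. Both libraries described here were replicate 2 of their group, of breed Syrian and wild-type genotype, made from total RNA of oocytes or embryos handled singly, to which an exogenous spike-in had been added. One is labelled GV stage oocyte (WT-GV), the stage at which the large nucleus of the oocyte is still intact. The other is labelled embryo at 54PEA (WT-54PEA), and the labels do not spell out PEA. Ages, animals and the number of cells of the embryo are not given, and the other small RNA samples are not analysed here. With 1 library per stage no difference between stages has a replicate check, so none is tested, and all intervals cover counting error only, since amplified reads are not independent molecules.

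MicroRNAs are cut from hairpin precursors, and endogenous small interfering RNAs from long double-stranded RNA, by the nuclease Dicer, and both guide Argonaute proteins. A microRNA finds its targets mainly by its seed, bases 2 to 8 from its 5′ end, so sequences with 1 seed are usually grouped as a family. Mammalian oocytes also hold piRNAs, small RNAs bound by PIWI proteins and made without Dicer, and in mouse oocytes microRNAs act weakly while small interfering RNAs are active. Length alone does not tell these classes apart. No microRNA reference or genome was used here, so the sequences are given by their letters and not by gene names.

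The sequences that led either library are shown because they carry a large share of the reads. Each is written 5′ to 3′ with T as in the tables and the seed in capitals. The first was the most abundant in both libraries, the next 5 were among the 10 most abundant of both, 4 were so in WT-GV alone and the last 4 in WT-54PEA alone.
top in both 1: tATATGGTtcagaatttcact
top in both 2: aGGAAGTGagccttcacctgga
top in both 3: cACTCAAAtgtggcgcactct
top in both 4: aCTCAAACtgtgggggcacttt
top in both 5: aCTCAAACtgtgggggcactt
top in both 6: tGAGAGTGtctagttaccatgc
top in WT-GV 1: tCCAGGGCttgagtataaact
top in WT-GV 2: cATCAAAGtggatgccctctct
top in WT-GV 3: gCTGTAGCcatcttcactgtct
top in WT-GV 4: tAGGTCACaggactacttggtc
top in WT-54PEA 1: tGAAATTCaaagcttgtatact
top in WT-54PEA 2: tGAATTCCcttgagcaacata
top in WT-54PEA 3: tATTCTGGctttcattctgact
top in WT-54PEA 4: gGCATTCCatagtcttagaact

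WT-GV held 4305443 reads and WT-54PEA 4662344 reads, of 17 to 45 nt, so depth was alike. Whether reads of the spike-in are among these totals, and so behind every share and RPM, is not given in the sources used here. Reads of 21 to 22 nt numbered 424696 in WT-GV, which was 9.86% of its reads (exact 95% interval 9.84% to 9.89%). WT-54PEA had 1696458 such reads, or 36.4% (36.3% to 36.4%). The share was thus 3.69-fold larger in the embryo library. Sequences of 18 to 20 nt also took a larger share there, 40.4% against 26.3%. Longer classes took less: 12.8% against 19.01% at 23 to 24 nt, 3.44% against 12.0% at 25 to 27 nt, and 1.14% against 29.0% at 28 to 30 nt, the size of many piRNAs. Since all values are shares of a library, more reads of 1 size and fewer of another cannot be told apart. Within the 21 to 22 nt reads, 21 nt made up 35.6% in WT-GV and 47.7% in WT-54PEA.

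The labels were compared with long RNA of the same 2 groups, in 2 other libraries per stage with 6078063 to 9792193 gene counts, as CPM (counts scaled to a total of 1000000). The summed level of 8 oocyte genes found among 10 listed was 10646 and 12507 CPM in the WT-GV libraries and 116 and 85.3 CPM in the WT-54PEA libraries. The 9 embryo genes summed to 501 and 455 CPM in WT-GV against 1109 and 980 CPM in WT-54PEA. Cdx2, however, was at 0 in both embryo libraries and Nanog at 1.32 and 0.802 CPM. Tfap2c went the other way, at 311 and 273 CPM in WT-GV against 144 and 156 CPM in WT-54PEA. The largest part of the WT-54PEA sum was Klf17, at 396 and 312 CPM against 23.9 and 10.6 CPM in WT-GV. The 9 of 11 granulosa and cumulus cell genes found summed to 13.9 to 37.0 CPM in all 4 libraries, with Has2 and Ptx3 at 0 in each. Most of the WT-GV sums was Star, at 14.6 and 16.6 CPM, which was at 0 in WT-54PEA. Most of the WT-54PEA sums was Foxl2, at 21.1 and 13.9 CPM against 0.511 and 1.32 CPM in WT-GV. Kitlg stood at 13.8 and 0 CPM in WT-54PEA. Of 3 blood cell genes found among 6, Ptprc was at 0 in each, while Csf1r reached 416 and 206 CPM in WT-GV. The part of these cells in the small RNA results was not tested. Dicer1, which encodes Dicer, stood at 26.1 and 24.7 CPM in WT-GV and 120 and 89.9 CPM in WT-54PEA. Ago2, the Argonaute that can cut its target, stood at 10.0 and 3.96 CPM in WT-GV and 29.9 and 35.8 CPM in WT-54PEA. Not all of the 9 small RNA machinery genes found among 10 were higher there: Drosha, which cuts microRNA precursors in the nucleus, stood at 72.9 and 43.0 CPM against 32.4 and 54.8 CPM, and Ago3, another Argonaute, at 16.9 and 26.1 CPM against 9.54 and 16.04 CPM. Tarbp2, a partner of Dicer, stood at 74.96 and 77.96 CPM against 71.1 and 52.3 CPM.

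A few sequences held much of the 21 to 22 nt reads in both libraries. The most abundant alone held 11.2% (11.1% to 11.3%) of them in WT-GV and 7.61% (7.57% to 7.65%) in WT-54PEA. The 10 most abundant held 25.6% and 23.2%, the 100 most abundant 46.7% and 45.8%, and the 1000 most abundant 75.4% and 76.6%. In WT-GV 132 sequences, and in WT-54PEA 139, made up 50% of the reads. The inverse Simpson index, the number of equally abundant sequences that would be as concentrated, was 61.7 in WT-GV and 99.1 in WT-54PEA. At the other end, 3633 sequences (23.3%) of WT-GV and 1888 (9.48%) of WT-54PEA rested on 1 read, and the median sequence had 4 and 8 reads.

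Overlap was partial over all lengths, where 105302 sequences in WT-GV and 91227 in WT-54PEA made up 144595 distinct ones. Of the 21 to 22 nt sequences the libraries shared 9454, 60.6% of those in WT-GV and 47.5% of those in WT-54PEA. These held 92.4% and 91.6% of the 21 to 22 nt reads. Their order differed: 6 of the 10 most abundant and 33 of the 100 most abundant were common to both. Over the 2743 sequences with 10 or more reads in each library, the Spearman correlation of the reads was 0.343, a description across sequences that share 2 libraries.

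The leading sequence, tATATGGTtcagaatttcact, had 47377 reads in WT-GV, or 11004 RPM (reads scaled to a total of 1000000 over all lengths), and 129056 reads, or 27680.5 RPM, in WT-54PEA. On this scale it was 2.52-fold higher in WT-54PEA (2.49 to 2.54), but as a share of the 21 to 22 nt reads it stood at 0.682 of its WT-GV level. Its direction therefore depends on the total used. The same holds for cACTCAAAtgtggcgcactct, with 9727 and 29002 reads, 2.75-fold higher in RPM and at 0.746 of its WT-GV share of 21 to 22 nt reads. For aGGAAGTGagccttcacctgga the reads were 15913 and 20340, a 1.18-fold difference in RPM (1.16 to 1.21), and its share of the 21 to 22 nt reads was 3.13-fold larger in WT-GV. This sequence was second in WT-GV and the 8th most abundant in WT-54PEA.

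The pair aCTCAAACtgtgggggcacttt and aCTCAAACtgtgggggcactt differs by 1 T at the 3′ end. The longer form had 7135 reads in WT-GV and 15771 in WT-54PEA, and the shorter form 5183 and 22124. Their order was thus opposite in the libraries, with the 22 nt form ahead in the oocyte and the 21 nt form ahead in the embryo. Over 20 to 24 nt their family had a mean length of 21.6 nt in WT-GV and 21.4 nt in WT-54PEA.

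Other leaders were nearly level or higher in one library. In RPM, tCCAGGGCttgagtataaact (5716 and 8205 reads) was 1.33-fold higher in WT-54PEA and cATCAAAGtggatgccctctct (4183 and 12506 reads) 2.76-fold higher. Both took a smaller share of the 21 to 22 nt reads in WT-54PEA, 0.359 and 0.748 of the WT-GV share. By contrast, gCTGTAGCcatcttcactgtct (3925 and 2090 reads) was 2.03-fold higher in WT-GV in RPM, and tAGGTCACaggactacttggtc (3342 and 797 reads) 4.54-fold higher (4.20 to 4.91). Both were also higher in WT-GV as shares of the 21 to 22 nt reads, 7.50-fold and 16.7-fold.

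The 4 sequences among the 10 most abundant in WT-54PEA alone, and tGAGAGTGtctagttaccatgc of those in both, were at least 4-fold higher in WT-54PEA. With 6392 reads in WT-GV and 56919 in WT-54PEA, tGAGAGTGtctagttaccatgc was 8.22-fold higher in WT-54PEA (8.01 to 8.44) and second there. For tGAAATTCaaagcttgtatact the reads were 1642 and 54768, a ratio of 30.8 (29.3 to 32.4). The next, tATTCTGGctttcattctgact, had 260 and 21771 reads and a ratio of 77.3 (68.4 to 87.7). Larger ratios came from lower oocyte counts: tGAATTCCcttgagcaacata had 78 and 26279 reads, 311-fold higher in WT-54PEA (249 to 394), and was 5th in WT-54PEA but 684th in WT-GV. With 46 and 17681 reads, gGCATTCCatagtcttagaact was 355-fold higher (266 to 485). All 5 were also higher in WT-54PEA as shares of the 21 to 22 nt reads, by 2.23-fold for tGAGAGTGtctagttaccatgc up to 96.2-fold for gGCATTCCatagtcttagaact.

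Stage differences were counted over sequences with at least 100 RPM in 1 library, as called when RPM differed at least 4-fold. Of all 2257 such sequences of any length, 33.5% were higher in WT-54PEA and 37.0% higher in WT-GV by this rule. Of the 566 sequences of 21 to 22 nt among them, 414 (73.1%) were higher in WT-54PEA, 36 (6.36%) higher in WT-GV and 116 neither. The 21 to 22 nt sequences thus lay above the share for all lengths in one direction and below it in the other, as their 3.69-fold larger summed share entails in part. Scaled to the 21 to 22 nt reads alone, the counts were 289 and 59. The median ratio over the 2743 shared sequences was 1.14 on the log2 scale with all reads as the total and −0.74 with the 21 to 22 nt reads as the total, so the scaling turns the direction of a typical sequence. Ratios next to the threshold were 3.99 and 4.09.

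Neighbouring sizes differed in graded fashion by the same rule. At 18 to 20 nt 34.7% of 579 sequences were higher in WT-54PEA and 7.94% higher in WT-GV. At 23 to 24 nt the shares were 22.6% and 45.5% of 398, and at 25 to 27 nt 1.09% and 75.4% of 183. At 28 to 30 nt none of 415 was higher in WT-54PEA and 96.6% were higher in WT-GV. Among the sizes, 21 to 22 nt had the highest share called for WT-54PEA.

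The 414 sequences higher in WT-54PEA held 45.7% of its 21 to 22 nt reads, and 15 of them had no read in WT-GV. The 36 higher in WT-GV held 8.59% of that library's 21 to 22 nt reads, and 1 had no read in WT-54PEA. The sets differed in length: 224 of 414 (54.1%) were 21 nt long against 6 of 36 (16.7%), with 46.3% of the 566 as the reference. Adenine at base 10 was found in 43.7% of the 414 and 19.4% of the 36, with 38.9% over the 566. T stood first in 82.1% and 83.3%, with 79.7% over the 566.

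The 8 sequences with the highest ratio for WT-54PEA and the 8 with the highest ratio for WT-GV are shown because they mark the ends of the stage difference. Counts under 3 reads were set to 3 for the ranking. They are written as above, with the seed in capitals.
higher in WT-54PEA 1: aGAACTCCatttacacacaat
higher in WT-54PEA 2: gGCATTCCatagtcttagaac
higher in WT-54PEA 3: tAGAAGCCaagacttgaactc
higher in WT-54PEA 4: cTAGAGAAtatccagaagaaac
higher in WT-54PEA 5: tACAACTAgatgacacatgga
higher in WT-54PEA 6: tAAACGGAgatcaagctttatt
higher in WT-54PEA 7: gGCATTCCatagtcttagaact
higher in WT-54PEA 8: aGACAGTGataaacaaagaagc
higher in WT-GV 1: tCATGGATggacctgagtgggg
higher in WT-GV 2: tAGGAAACtttttgtattagc
higher in WT-GV 3: tAAGAACTctcaggagatggt
higher in WT-GV 4: tGAGATTCttcagcttgtatgg
higher in WT-GV 5: tACTAAATgtgctttgactacc
higher in WT-GV 6: tAGTTATCtgaggctacccaac
higher in WT-GV 7: gGGAAGACatactagaatgggt
higher in WT-GV 8: aGGGATCAgtgacgtcagggtc

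Several of the sequences highest in WT-54PEA rested on a handful of WT-GV reads, so their ratios are wide. The reads in WT-GV and WT-54PEA were 4 and 3425 for aGAACTCCatttacacacaat, a ratio of 791 (309 to 2904). For gGCATTCCatagtcttagaac, the 21 nt form of a leader above, they were 4 and 2598, a ratio of 599.8 (234 to 2203). The ratio was 433 (148 to 2104) for tAGAAGCCaagacttgaactc, from 3 and 1408 reads. These intervals overlap, so counting error leaves their order unsettled.
The same is true of cTAGAGAAtatccagaagaaac, with 2 and 1316 reads and a ratio of 608 (168 to 5023), and of tACAACTAgatgacacatgga, with 1 and 1238 reads and a ratio of 1143 (205 to 45191). Firmer counts stood behind tAAACGGAgatcaagctttatt, with 22 and 8904 reads and a ratio of 374 (247 to 597). For aGACAGTGataaacaaagaagc the reads were 7 and 2648, a ratio of 349 (169 to 870).

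Sequences highest in WT-GV were fewer and of lower abundance. With 2942 reads in WT-GV and 98 in WT-54PEA, aGGGATCAgtgacgtcagggtc was the most abundant of the 8 and 32.5-fold higher in WT-GV (26.6 to 40.2). For tAGGAAACtttttgtattagc the reads were 1529 and 7, a ratio of 237 (115 to 589). For tACTAAATgtgctttgactacc they were 934 and 12, a ratio of 84.3 (48.0 to 164). Each of these was among the 50 most abundant of the oocyte library.
For tCATGGATggacctgagtgggg, 858 and 1 reads gave a ratio of 929 (166 to 36741). The sequence tAAGAACTctcaggagatggt had 482 reads in WT-GV and 0 in WT-54PEA, so it was at least 174-fold higher in WT-GV by a floor of 3 reads in the WT-54PEA library. The ratio was 157 (66.9 to 484) for tGAGATTCttcagcttgtatgg, from 724 and 5 reads. The other two, tAGTTATCtgaggctacccaac (531 and 7 reads) and gGGAAGACatactagaatgggt (479 and 13 reads), were 82.1-fold and 39.9-fold higher.

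Whether a stage difference belonged to a length or to every length was read from families, defined as all sequences with the same first 18 bases. Of the 414 sequences higher in WT-54PEA, 203 (49.0%) had a family that was also at least 4-fold higher there, and for 46 (11.1%) the family was not higher at all. Of the 36 higher in WT-GV, 32 (88.9%) had a family at least 4-fold higher in WT-GV. The difference was thus larger in the 21 to 22 nt form than in the family for many of the 414. Both sets were picked by the ratio of that form, so a smaller ratio in the family is in part fixed by the choice.

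The family of tACAACTAgatgacacatgga is an example of a difference larger in the 21 to 22 nt form than in the family. It had 1628 reads in WT-GV and 2109 in WT-54PEA, and its commonest length was 27 nt in WT-GV, with 710 reads, and 21 nt in WT-54PEA, with 1238 reads. The family of tACACAGAgaatcttgatctt had 51466 and 44809 reads, yet the 21 nt form had 38 and 6122. Its commonest length was 30 nt in WT-GV, with 14874 reads against 154 in WT-54PEA, and 19 nt in WT-54PEA, with 15928 reads against 14582 in WT-GV. In both families the total was near level and the long forms were scarcer in the embryo library.
The family of tAAACGGAgatcaagctttatt went from a commonest length of 25 nt in WT-GV (8567 reads) to 24 nt in WT-54PEA (12358 reads), with 11842 and 35539 reads in all. The family of tGAAATTCaaagcttgtatact had 2180 reads at 30 nt and 1961 at 29 nt in WT-GV, against 30 at each in WT-54PEA. In WT-54PEA 99.3% of this family's 55267 reads were 21 to 22 nt, compared with 26.0% of 6347 in WT-GV. For tGAATTCCcttgagcaacata the share of the family at 21 to 22 nt was 1.89% of 6601 reads in WT-GV and 77.1% of 35461 in WT-54PEA.

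Other families differed in their total over all lengths, though not in the same direction at each length. That of aGAACTCCatttacacacaat had 446 and 14314 reads, 29.6-fold higher in WT-54PEA in RPM. The start 1 base upstream of it had 2777 and 10823 reads, so the shifted start differed less between libraries. The family of tATTCTGGctttcattctgact had 1039 and 22570 reads, 20.1-fold higher, and that of gGCATTCCatagtcttagaact 1368 and 22753 reads, 15.4-fold higher. Some longer forms of these went the other way: the 30 nt form of the first had 182 reads in WT-GV and 1 in WT-54PEA, the 25 nt form of the next 389 and 0, and the 24 nt form of the last 664 and 72. In the other direction, the family of tAGGAAACtttttgtattagc had 2175 and 36 reads, 65.4-fold higher in WT-GV, and that of aGGGATCAgtgacgtcagggtc 4364 and 319 reads, 14.8-fold higher, although its 21 nt forms had 26 and 38 reads. All 482 reads of the family of tAAGAACTctcaggagatggt were 21 nt long, without an end variant, and the family had none in WT-54PEA.

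Seed groups were formed from bases 2 to 8. The 21 to 22 nt sequences held 6879 of 16384 possible seeds in WT-GV and 7643 in WT-54PEA, with 5697 in both. The 5 largest groups held 22.02% (21.9% to 22.1%) of the 21 to 22 nt reads in WT-GV and 18.8% (18.7% to 18.8%) in WT-54PEA, and the 20 largest 32.9% and 33.2%. Of the 20 largest, 9 were common to both libraries. In each library 15 of the 20 largest had 95% or more of their reads from 1 start of 18 bases, so most large seed groups were 1 small RNA with its end variants.

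The largest groups followed the leading sequences. The ATATGGT group held 11.4% of the 21 to 22 nt reads in WT-GV and 7.94% in WT-54PEA, and all or 99.9% of it came from 1 start. The GGAAGTG group held 3.77% and 1.21%, CTCAAAC 3.07% and 2.30%, ACTCAAA 2.30% and 1.72%, and CCAGGGC 1.46% and 0.984%. Each of these took a smaller share in WT-54PEA. The GAGAGTG group held 1.51% and 3.41%, GAAATTC 0.396% and 3.25%, and GAATTCC 0.183% and 1.85%, each larger in WT-54PEA.

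Of the 27 seed groups with at least 0.5% of the 21 to 22 nt reads in 1 library, 11 were at least 4-fold larger in WT-54PEA and 5 at least 4-fold larger in WT-GV as shares of those reads. For WT-54PEA the highest ratios were 102 for GCATTCC (77.0 to 137), 77.7 for AAACGGA (56.1 to 111), 31.9 for ACACAGA (25.1 to 41.0), 27.5 for GAACTCC (22.9 to 33.4) and 26.0 for TTCAGGA (21.99 to 30.9). For WT-GV they were 82.8 for GGGATCA (70.0 to 98.6), 16.2 for GCTATGT (15.1 to 17.3), 15.4 for AGGTCAC (14.3 to 16.6), 7.24 for GGAGACA (6.86 to 7.64) and 6.86 for CTGTAGC (6.51 to 7.22). The leading sequences not yet shown are given to place these groups.
leader of ACACAGA: tACACAGAgaatcttgatctt
leader of GAACTCC: aGAACTCCatttacacacaatt
leader of TTCAGGA: aTTCAGGAaagaaacactggcc
leader of GCTATGT: tGCTATGTagctctgggtgcct
leader of GGAGACA: tGGAGACAgtgttgtttgaagc
They had 38 and 6122, 77 and 6677, 117 and 14437, 2645 and 696, and 1826 and 876 reads in WT-GV and WT-54PEA, in that order.

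Few of the larger groups joined several different small RNAs. The clearest was GAGGTAG, with 17 sequences from 9 starts in each library, which is the seed by which the let-7 microRNA family of human and mouse is known, as background, with no match made here. It had 2722 reads (0.641% of the 21 to 22 nt reads) in WT-GV and 2965 reads (0.175%) in WT-54PEA, so its RPM was near level and its share of 21 to 22 nt reads 3.67-fold larger in WT-GV. Its 4 leading starts are shown, since they share the seed and differ behind it.
GAGGTAG 1: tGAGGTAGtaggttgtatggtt
GAGGTAG 2: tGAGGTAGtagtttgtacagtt
GAGGTAG 3: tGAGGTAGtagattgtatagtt
GAGGTAG 4: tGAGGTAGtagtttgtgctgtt
All 21 to 22 nt reads of these starts numbered 847 and 499, 766 and 674, 606 and 1049, and 175 and 226 in WT-GV and WT-54PEA. The first start was the largest in WT-GV (31.1%) and the third the largest in WT-54PEA (35.4%).

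GGAGACA joined a pair of main starts in WT-GV, tGGAGACAgtgttgtttgaagc with 49.4% and tGGAGACAtatgctggaacatt with 47.1% of its reads. In WT-54PEA the first kept 42.7% and the second 12.98%, while tGGAGACAtattatttacaatg, at 1.40% in WT-GV, made up 23.4%. GAATTCC was led by tGAATTCCagttgtagtgacta in WT-GV, with 78.1% of the reads from its start, and by tGAATTCCcttgagcaacata in WT-54PEA, with 87.0%. That WT-GV leading start had 608 and 3830 reads, so it was also more abundant in WT-54PEA, where the other start went from 125 to 27356. The make-up of both groups thus differed between libraries along with their size. CTCAAAC also held a second start, aCTCAAACtgggggctcttttt, at 5.12% of the group in WT-GV and 2.02% in WT-54PEA.

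Nearly all 21 to 22 nt reads shared their first 18 bases with a sequence of another length, whatever its read count. This share was not computed for other sizes. The first 18 bases occurred at another length for 97.0% of the 21 to 22 nt reads in WT-GV and 98.0% in WT-54PEA. In WT-GV 66.3% of the reads lay in families whose commonest length was 21 to 22 nt, compared with 81.7% in WT-54PEA. Families with a commonest length of 28 to 30 nt held 9.57% of the 21 to 22 nt reads in WT-GV and 0.155% in WT-54PEA, and those of 25 to 27 nt 4.44% and 0.720%. A part of the oocyte reads of this size thus shared its 5′ end with longer RNAs that outnumbered it.

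Starts varied less than ends. For the 100 most abundant sequences, the start 1 base downstream had a median of 1.13% of the reads of the own start in WT-GV and 2.57% in WT-54PEA, and the start 1 base upstream 0.0913% and 0.198%. For tATATGGTtcagaatttcact the downstream start had 1025 reads against 55074 in WT-GV and 17166 against 160564 in WT-54PEA. Some named sequences lay 1 base downstream of a start with more reads. The start upstream of tCATGGATggacctgagtgggg had 20492 and 59245 reads, against 15356 and 3344 at its own start. It was thus more abundant in WT-54PEA, unlike the named form. That upstream of aTTCAGGAaagaaacactggcc had 5330 and 6824 reads, against 3865 and 21186.

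The 3′ ends lay further upstream in the embryo library. In the 379 families with 100 or more 21 to 22 nt reads in both libraries, the mean length over 20 to 24 nt had a median of 22.02 nt in WT-GV and 21.6 nt in WT-54PEA. It was shorter in WT-54PEA in 315 families (83.1%) and longer in 54, with a median difference of −0.25 nt. A family was shorter by 1 nt or more in 61 cases and longer by 1 nt or more in none. The commonest length was here taken within 20 to 24 nt, which leaves out other lengths. The family of tGAAATTCaaagcttgtatact, for example, had 2180 reads at 30 nt in WT-GV against 1642 at 22 nt. Within 20 to 24 nt the commonest length was 23 nt in 48 families in WT-GV and 12 in WT-54PEA. It was 24 nt in 21 and 2, 22 nt in 222 and 206, and 21 nt in 64 and 134. The families share the 2 libraries, so this is a difference between those libraries. Reads of 23 to 24 nt also took a smaller share of the whole WT-54PEA library, as given above, and the part of that in the difference was not tested.

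Abundant families show how uneven the difference was, with means over 20 to 24 nt. In the family of tGAGAGTGtctagttaccatgc, WT-GV had 6392 reads at 22 nt and 9832 at 23 nt, while WT-54PEA had 56919 and 2237. The mean length was 22.6 nt in WT-GV and 22.02 nt in WT-54PEA. The family of tATATGGTtcagaatttcact, by contrast, had a mean of 20.9 nt in both libraries, and that of aGGAAGTGagccttcacctgga 22.04 and 22.05 nt. The length profiles of these 2 leaders thus differed little, unlike that of the first family.
A wide difference was seen in the family of tCCGGAGAtagccaagttgac, with a mean of 23.2 nt in WT-GV and 20.9 nt in WT-54PEA. It had 3931 reads at 24 nt and 99 at 20 nt in WT-GV, against 112 and 2942 in WT-54PEA. The family of tGAGGATTcggaaagcaaagt was led by 22 nt in WT-GV (1074 reads) and by 21 nt in WT-54PEA (4160 reads). An exception within 20 to 24 nt was the family of tCCAGGGCttgagtataaact, 0.60 nt longer in WT-54PEA, where the 22 nt form had 8058 reads against 335 in WT-GV. Outside 20 to 24 nt this family had 8016 reads at 19 nt and 1870 at 25 nt in WT-GV. In WT-54PEA it had 16482 and 46, so the direction does not extend to all lengths.

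The family of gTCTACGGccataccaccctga differed by −1.42 nt. Mammalian 5S ribosomal RNA is known to open with these letters, as background, with no match made here, and the length rule keeps any RNA of this size. Its seed group, TCTACGG, held 0.562% of the 21 to 22 nt reads in WT-GV and 1.08% in WT-54PEA. It had 2184 and 9043 reads at 22 nt and 661 and 13906 at 20 nt.

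Single-base relatives were few. Of the 100 most abundant sequences, 80 in WT-GV and 74 in WT-54PEA had no sequence of the same length 1 base away, including the leader with 47377 and 129056 reads. How such variants were treated upstream is not given in the sources used here. Positions in the following count from 1 at the 5′ end. T13C of cATCAAAGtggatgccctctct had 815 reads in WT-GV and 2479 in WT-54PEA, which was 16.3% (15.3% to 17.4%) and 16.5% (15.95% to 17.1%) of the pair's reads. C9G of tATTCTGGctttcattctgact had 60 and 5021 reads, or 18.8% (14.6% to 23.5%) and 18.7% (18.3% to 19.2%). Both relatives kept their proportion between libraries within counting error, although the second pair differed 77.3-fold in its main member. A further relative differed in proportion at 22 nt: A3G of tGAGAGTGtctagttaccatgc, a change in the seed, had 924 and 3432 reads, or 12.6% (11.9% to 13.4%) and 5.69% (5.50% to 5.87%). At 23 nt, the commonest length of the main form in WT-GV, the main form had 9832 and 2237 reads and the relative 312 and 53. The 22 nt proportion is thus not that over all lengths. T1A of tGAATTCCcttgagcaacata also differed in proportion, from 5 and 86 reads, at 6.02% (1.98% to 13.5%) and 0.326% (0.261% to 0.403%). C14A of cACTCAAAtgtggcgcactct, from 2 and 31 reads, lay at 0.0206% (0.00249% to 0.0742%) and 0.107% (0.0726% to 0.152%). G11C of tCCAGGGCttgagtataaact had 116 and 147 reads, or 1.99% (1.65% to 2.38%) and 1.76% (1.49% to 2.07%), within counting error. The 3 relatives with the most reads are shown with the seed in capitals.
T13C relative: cATCAAAGtggacgccctctct
C9G relative: tATTCTGGgtttcattctgact
A3G relative: tGGGAGTGtctagttaccatgc

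T was the commonest first base, at 71.4% of the 21 to 22 nt reads in WT-GV and 75.9% in WT-54PEA. This was less than in the sizes on either side, 95.1% and 83.2% at 18 to 20 nt and 84.5% and 83.4% at 23 to 24 nt. Adenine at base 10, which marks the partners of piRNAs paired over their first 10 bases, stood in 22.3% of the 21 to 22 nt reads in WT-GV and 32.7% in WT-54PEA. At 18 to 20 nt it stood in 39.5% and 39.0%, and at 23 to 24 nt in 38.7% and 43.2%. The leaders weigh on these read shares: counted once each, 27.997% and 32.4% of the 21 to 22 nt sequences had adenine at base 10, and 65.4% and 62.0% began with T. Counted in this way, adenine stood in 29.6% and 30.3% at 18 to 20 nt and in 32.4% and 35.0% at 23 to 24 nt. T stood first in 81.8% and 67.6%, and in 67.8% and 63.6%. The sizes thus lay closer by sequence than by reads, and for adenine in WT-54PEA 21 to 22 nt lay above 18 to 20 nt.

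Complementary partners with 2 nt free at each 3′ end, the form in which Dicer leaves its products, were rare. Partners were counted only where all other bases paired without a mismatch and both strands had equal length. A duplex with a mismatch or bulge was missed by this rule, so it cannot tell which sequences Dicer made. The counted partners took in 34 sequences with 258 reads in WT-GV, or 0.0607% of the 21 to 22 nt reads, in 17 pairs. In WT-54PEA they took in 13 sequences with 567 reads, or 0.0334%, in 7 pairs. Of these, 4 pairs occurred in both libraries. In such pairs the 5′ ends overlap by 19 nt (21 nt strands) or 20 nt (22 nt strands). At 19 and 20 nt, 34 and 46 sequences of WT-GV and 16 and 21 of WT-54PEA had a partner. Other long overlaps were about as frequent. At 17, 18 and 21 nt the numbers were 46, 29 and 27 in WT-GV and 33, 24 and 21 in WT-54PEA. Short overlaps took in many more sequences: 583 and 907 at 10 nt, and 3674 and 5776 at 8 nt, in WT-GV and WT-54PEA. Whether the pairs shown came from a duplex was not tested. The 3 with the most reads of those in WT-GV that recurred are shown, since both strands of the pairing are among the reads, with paired bases in capitals and the free bases in lower case.
pair 1, strand 1: ACCATGCTGGAATCCTGACAtt
pair 1, strand 2: TGTCAGGATTCCAGCATGGTaa
pair 2, strand 1: AGCTGATGCAGAGGCCATGGga
pair 2, strand 2: CCATGGCCTCTGCATCAGCTcc
pair 3, strand 1: TCCTGAATAAACTGCTTAAAga
pair 3, strand 2: TTTAAGCAGTTTATTCAGGAac
Strands 1 and 2 of pair 1 had 8 and 51 reads in WT-GV and 54 and 189 in WT-54PEA. Those of pair 2 had 50 and 3 reads in WT-GV and 36 and 3 in WT-54PEA, and those of pair 3 had 5 and 25 reads in WT-GV and 22 and 62 in WT-54PEA. None of the abundant sequences above was a strand of such a fully complementary pair.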

How the data were processed

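Each of the 2 small RNA tables lists sequences with their read counts, which the authors deposited. Per the submitters' processing notes, Trim Galore, TopHat, STAR 2.7.1a and featureCounts were used, and the notes give no role by library type. Trimming, mapping, length limits and any removal of spike-in reads from the small RNA tables are not given in the sources used here. The long RNA tables are counts per gene, as deposited by the authors, and CPM was computed from them here.

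Sequences of 21 to 22 nt were selected, and RPM scales a table's reads of all lengths to a total of 1000000. Seeds are bases 2 to 8, and families share their first 18 bases. Intervals are exact (Clopper-Pearson for shares, conditional binomial for ratios) at 95%, with a floor of 3 reads for a count of 0. Python 3.11.15, NumPy 2.4.6 and SciPy 1.17.1 were used, and the functions were tested on simulated data.

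Named sequences are the 10 most abundant of each library, the leaders of the 6 largest seed groups, the 8 highest ratios each way at 100 RPM or more, the leaders of the 5 seed groups of 0.5% or more with the highest ratio each way, and end variants of large families. Other sequences named (single-base relatives, partners, further starts of seed groups, the GAGGTAG group and the TCTACGG group, and the families with length differences) were chosen after their values were seen. The members and lists were chosen with earlier results of these data known. The planned match to RefSeq microRNAs and the microRNA marker lists were not run, since no microRNA sequences were used here.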

Additional observations from a re-analysis of the deposited data

How the results depend on the processing

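Of 51 alternative values for 13 results, 37 moved by more than their counting interval or, for counts, by over 1.5 times, and 14 did not. Values are given for WT-GV, then WT-54PEA. The share of 21 to 22 nt reads was 9.55% and 37.2% over sequences with 10 or more reads, 26.4% and 58.7% for 20 to 23 nt, 14.8% and 21.8% of distinct sequences, and 10.3% and 38.6% of the 18 to 30 nt reads. The share of the 10 most abundant was 26.97% and 24.9% with sequences joined by their first 18 bases, 17.1% and 17.8% without the most abundant, 49.9% and 30.98% at 21 nt, and 18.5% and 26.5% at 22 nt. That of the 5 largest seed groups was 22.3% and 19.0045% with bases 2 to 7, 11.3% and 12.6% at 20 to 24 nt, and 13.63% and 13.57% without the most abundant sequence. WT-54PEA kept the larger share of 21 to 22 nt reads in each of these settings, while the order of the libraries in dominance turned for the 10 most abundant without the most abundant sequence and at 22 nt alone, and for the 5 largest seed groups at 20 to 24 nt.

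Sequences at least 4-fold higher in WT-GV numbered 59 with the 21 to 22 nt reads as the total, 169 at a floor of 20 RPM, 3 at 500 RPM and 23 at an 8-fold threshold. Those higher in WT-54PEA numbered 1600 at 20 RPM and 68 at 500 RPM, where a lower or higher floor itself changes how many can be counted. Reads whose first bases occurred at another length made up 97.2% and 98.3% with 16 shared bases and 94.8% and 96.6% with 20. They made up 87.8% and 92.7% with a partner of 10 or more reads. Partners with 2-nt overhangs and 5 or more reads each made up 0.0210% and 0.0305%, so the order of the libraries turned. A partner of 20 to 24 nt gave the same values by construction, since both strands then have equal length. The share of shorter families, whose alternatives were chosen after seeing the data, was 86.8% over 21 to 23 nt. Where no reason is given, the cause was not tested. The match to RefSeq microRNAs, by 18 bases, whole length or hairpin, was not run. No paired analysis was possible because each stage has 1 library. Depth limits sequences with few reads: 1 read was 0.232 RPM in WT-GV and 0.214 RPM in WT-54PEA.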
